A study of Mus musculus with 24 samples.

Results

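The 66 genes described here had a higher level in corticothalamic projection neurons (Tle4 CThPNs) than in callosal projection neurons (Cux2 CPNs) at all 6 ages examined. They were chosen from the 9767 rows of the expression table by the ratio (FPKM + 1 in Tle4 CThPNs)/(FPKM + 1 in Cux2 CPNs), which had to be at least 2 at each of them, from E18.5 through P1, P3, P7 and P21 to P48. FPKM are sequenced fragments scaled by transcript length and by the number mapped in the library. The ratio was reached at every age by 95 rows, which is 0.973% of the table. Of these, 29 were set aside by symbol, namely 9 identity genes of deep-layer neurons (Etv1, Fezf2, Tle4, Foxp2, Crym, Ldb2, Sox5, Nxph3 and Bcl11b), 5 genes of the cadherin, ephrin receptor and synaptotagmin families, and 15 short or predicted RNAs. The remaining 66 are 0.676% of the rows. Since the class ratio chose them, it is given below as a description and was not tested.

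Corticothalamic neurons lie mainly in layer 6 of the neocortex, and their axons reach the thalamus, where they modulate the relay of sensory information back to the cortex. Below them are the subplate neurons, among the earliest born cells of the cortex, whose survivors form layer 6b of the adult. Callosal projection neurons of layer 2/3 instead connect the hemispheres through the corpus callosum. The classes share transmitter (glutamate) and cortical origin, so the genes that separate them include transcription factors of layer identity, secreted and surface proteins used in wiring, and receptors that set their responses.

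Labelled neurons were sorted from the somatosensory and motor cortex of mice, whose strain is C57BL/6 in the labels and a mixed C57BL/6J background in the study's methods, that carried the Ai14 tdTomato reporter with Tle4-2A-CreERT2 or Cux2-CreERT2, and in both lines recombination was induced by 4-hydroxytamoxifen given to the pregnant mother. RNA was sequenced as 2 libraries for each of the 12 groups of class and age, 24 in all, and each library came from pooled animals. The deposited table holds 1 value per gene and group, so no value below has a replicate error, no difference was tested, and the reads behind each value are unknown. Each line reports the expression of 1 driver gene at induction, and the Cux2-CreERT2 line is known to label some interneurons as well. From single-cell sequencing counted over both sorted classes together, the study's methods conclude that such cells affected its own analysis only minimally.

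The labels of the sorted classes could be checked on genes outside the set. Tle4 itself had 165, 151, 116, 97.2, 90.6 and 75.02 FPKM in Tle4 CThPNs and 7.74, 6.32, 4.14, 2.02, 6.18 and 7.15 FPKM in Cux2 CPNs, from E18.5 to P48. Of 19 callosal and upper layer genes in the table, 0 passed the ratio for Tle4 CThPNs and 7 passed the mirrored ratio for Cux2 CPNs, among them Cux2 and Lhx2. Of 15 interneuron genes, 0 passed for Tle4 CThPNs and 6 passed for Cux2 CPNs, among them Gad1, Lhx6 and Sst. The summed level of the 15 was nonetheless higher in Tle4 CThPNs at E18.5 and P1, at 1361, 841, 638, 171, 160.1 and 40.1 FPKM in Tle4 CThPNs and 631, 715, 729, 401, 511 and 876 FPKM in Cux2 CPNs from E18.5 to P48. Most of the Tle4 CThPN sum up to P7 was Npy, neuropeptide Y, with 1334, 816, 614, 148, 73.4 and 3.97 FPKM in Tle4 CThPNs and 233, 415, 333, 102, 145 and 222 FPKM in Cux2 CPNs. The part of interneurons in the early levels of the members was not tested. The astrocyte list was higher in Tle4 CThPNs although none of its 10 genes passed at every age. Its summed level was 235, 185, 199.9, 158, 1008 and 619 FPKM in Tle4 CThPNs and 104, 79.9, 67.6, 59.0, 154 and 191 FPKM in Cux2 CPNs, from E18.5 to P48. In Tle4 CThPNs this sum was highest at P21, in Cux2 CPNs at P48. In sorted pools, a larger share of cells of some type and more RNA per cell cannot be told apart.

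Set out over the 12 groups, the members were at lower levels in Cux2 CPNs but mostly not absent there. Between 13 and 17 of them were under 1 FPKM in Cux2 CPNs at any one age, and the median Cux2 CPN level over the 66 lay between 2.27 and 3.33 FPKM. In Cux2 CPNs, 45 of the 66 stayed under 10 FPKM at all ages, whereas 30 had 10 FPKM or more in Tle4 CThPNs at all ages. The mean class difference over the 6 ages, on the log2(FPKM + 1) scale, ran from 1.39 for Dync1i1 to 4.11 for Ctgf, with a median of 2.46. Differences on this scale understate the change of genes with low values. The ratio was at least 4 at all ages in 20 members and at least 8 in 0. The age of its lowest value was E18.5 for 22 members, P1 for 10, P3 for 4, P7 for 6, and P21 or P48 for 12 each. Single ages were less selective, since a ratio of 2 was reached by 6.32% of rows at E18.5, by 5.67%, 5.38% and 4.62% at P1, P3 and P7, and by 5.97% and 5.96% at P21 and P48.

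**Figure D1:**
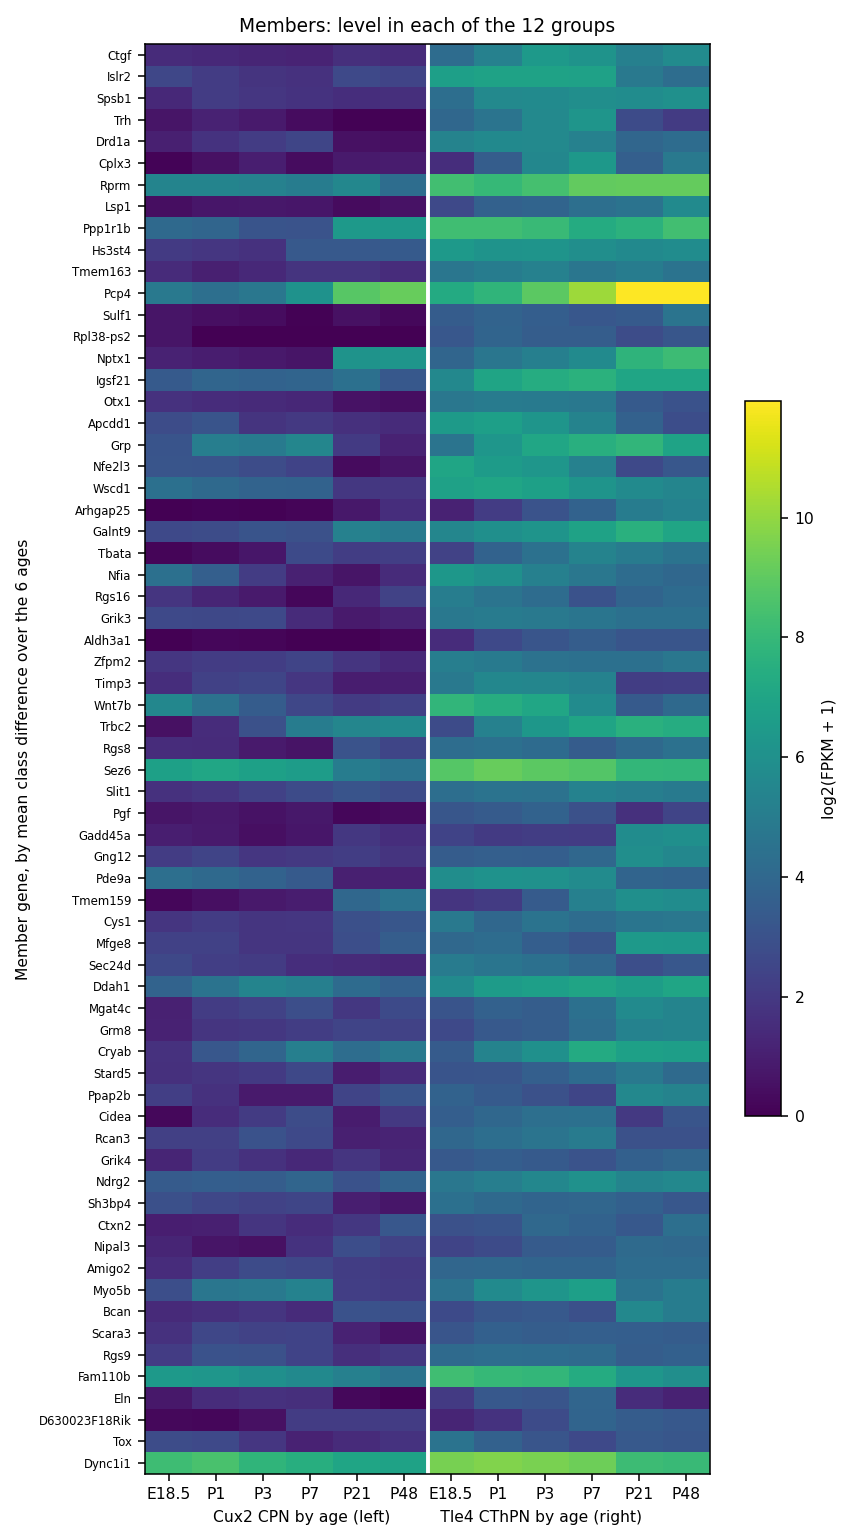
Level of the 66 members, as log2(FPKM + 1), in the 6 Cux2 CPN groups (left) and the 6 Tle4 CThPN groups (right), 1 value per gene and group, with genes ordered by mean class difference. Every row is brighter on the right than on the left at the same age, and Pcp4 has the brightest cells, at P21 and P48.

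The limit of 2 cut through a continuum. Just inside it lay Myo5b, with a lowest ratio of 2.00 at P1, the uncharacterized D630023F18Rik with 2.01 at E18.5, and Rgs8 with 2.05 at P21. Just outside it lay Aldh1b1 with 1.98 at P1, Apoe with 1.97 at E18.5 and Hs3st5 with 1.97 at P21.

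The set included known genes of layer 6 and of the subplate. Of 27 listed CThPN and layer 6 genes in the table, 18 passed the ratio, and 9 of them are members (Grik3, Trh, Sulf1, Zfpm2, Wnt7b, Ppp1r1b, Rprm, Hs3st4 and Pcp4). Of 12 subplate and layer 6b genes, 7 passed, of which 6 are members (Trh, Ctgf, Drd1a, Tmem163, Cplx3 and Rgs8) and Crym was set aside by symbol. These lists were written with earlier results of these data known, so the counts are not independent evidence of direction. Other genes of these lists did not pass. Ntsr1, the neurotensin receptor whose Cre line marks layer 6, had 49.2, 44.0, 43.1, 34.7, 5.60 and 6.50 FPKM in Tle4 CThPNs and 19.8, 28.6, 23.1, 17.5, 2.86 and 3.12 FPKM in Cux2 CPNs, and its lowest ratio was 1.52. Nxph4, a neurexophilin of the subplate, had 30.8, 32.7, 43.8, 19.2, 0.497 and 1.56 FPKM in Tle4 CThPNs, and its low level at P21 took it below the limit. Others of these lists were lower in Tle4 CThPNs on average or at some ages. Tmem200a and Galnt2 had mean differences of -0.95 and -0.52 (Tle4 CThPN minus Cux2 CPN). Igfbp4, a binding protein of insulin-like growth factors, had 5.77, 11.1, 9.49, 16.1, 236 and 171 FPKM in Tle4 CThPNs and 32.0, 17.2, 18.6, 46.5, 51.2 and 22.8 FPKM in Cux2 CPNs, so it was lower in Tle4 CThPNs up to P7 and higher later. Kcnab1, a potassium channel subunit, had 46.7, 56.9, 61.0, 43.3, 16.6 and 23.0 FPKM in Tle4 CThPNs and 2.97, 4.54, 5.25, 20.96, 42.8 and 60.9 FPKM in Cux2 CPNs, the opposite order.

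The subplate members kept a class difference at every age but differed in how they changed with age. Their levels are those of a sorted pool, and the part of subplate or layer 6b neurons in the Tle4 CThPN pool was not tested. Ctgf, a secreted matricellular protein used as a marker of layer 6b, had 17.5, 37.2, 84.3, 70.4, 35.7 and 54.1 FPKM in Tle4 CThPNs and 1.77, 1.60, 1.38, 1.30, 2.04 and 1.76 FPKM in Cux2 CPNs, in order of age from E18.5 to P48, as in all lists of values below. It was low in Cux2 CPNs at all ages, was highest in Tle4 CThPNs at P3, and had the largest mean difference of the set. Cplx3, a complexin that acts in vesicle release, had 1.95, 10.7, 44.6, 82.9, 11.1 and 27.2 FPKM in Tle4 CThPNs and 0.0789, 0.461, 0.99, 0.333, 0.82 and 0.852 FPKM in Cux2 CPNs. Its level in Tle4 CThPNs was lowest at E18.5 and highest at P7, and in Cux2 CPNs it never reached 1 FPKM. Trh, the prohormone of thyrotropin-releasing hormone, had 15.1, 23.3, 47.96, 74.1, 5.59 and 3.19 FPKM in Tle4 CThPNs and 0.624, 1.24, 0.818, 0.309, 0.0397 and 0.0385 FPKM in Cux2 CPNs. It was highest at P7 in Tle4 CThPNs and then fell by 2.72 from early to late.

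Here and below, the early level is the mean log2(FPKM + 1) of the 4 ages up to P7, and the late level that of P21 and P48. Rose and fell, when used for the change with age, refer to a change of at least 1 between these means, which is 2-fold on the FPKM + 1 scale, and describe these libraries without a test.

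Drd1a, the D1 dopamine receptor, had 39.6, 50.7, 48.9, 36.9, 14.4 and 17.7 FPKM in Tle4 CThPNs and 1.06, 2.39, 3.30, 4.64, 0.462 and 0.422 FPKM in Cux2 CPNs. Levels fell in both classes, by 1.40 in Tle4 CThPNs and by 1.32 in Cux2 CPNs, and the class difference was 3.63 early and 3.56 late. Tmem163, a zinc transporter of vesicles, had 24.8, 30.9, 36.5, 24.8, 31.2 and 22.3 FPKM in Tle4 CThPNs and 1.76, 1.07, 1.61, 2.43, 2.46 and 1.83 FPKM in Cux2 CPNs. It changed little with age in either class, and its lowest ratio, 7.53 at P7, was the highest lowest ratio of all members. Rgs8, a regulator that shortens G protein signals, had 18.01, 20.1, 17.0, 10.2, 16.2 and 20.99 FPKM in Tle4 CThPNs and 1.85, 1.73, 0.811, 0.548, 7.35 and 4.59 FPKM in Cux2 CPNs. Its difference shrank from 2.96 early to 1.51 late as the Cux2 CPN level rose by 1.66.

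**Figure D2:**
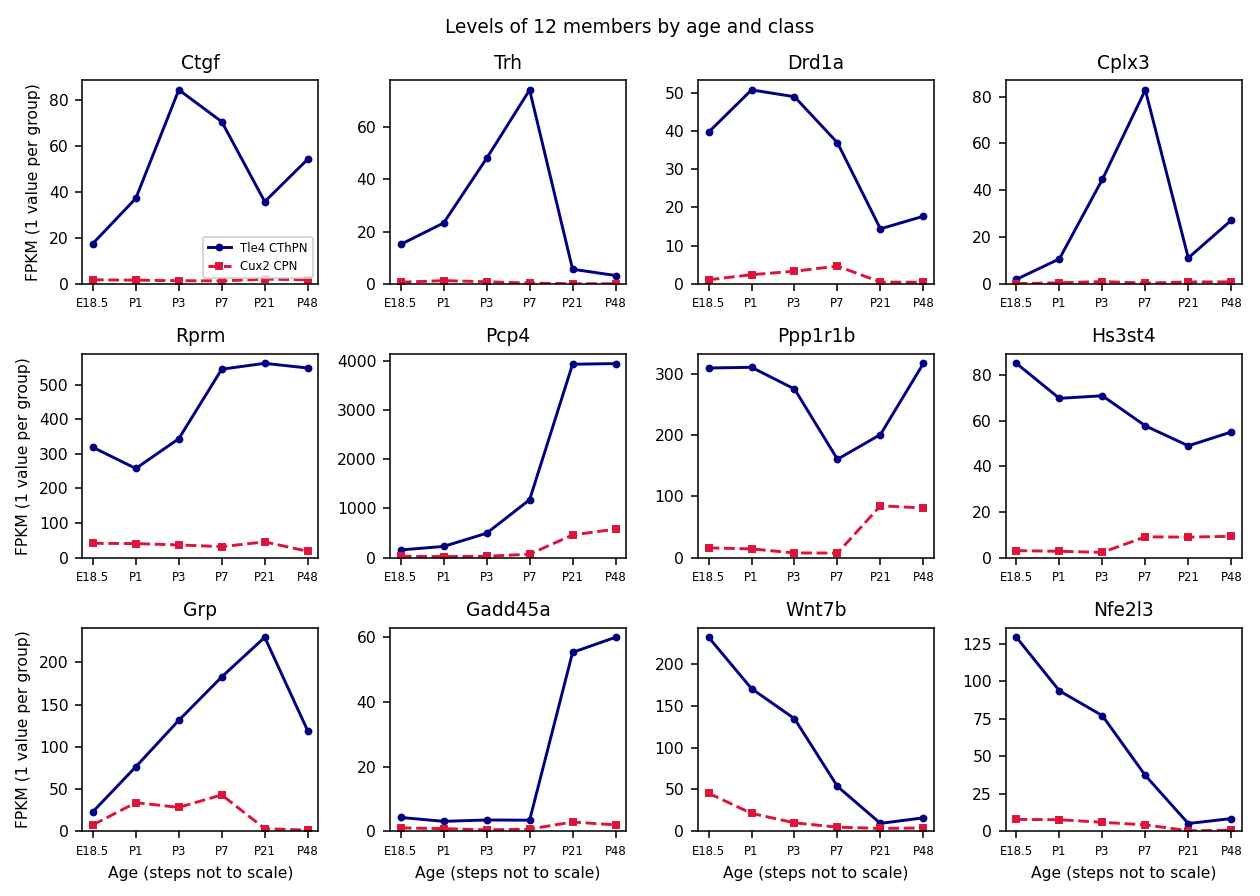
FPKM of 12 members by age (categories, not to scale), with Tle4 CThPNs as solid lines with circles and Cux2 CPNs as dashed lines with squares, 1 value per group and each panel on its own axis from 0. The solid line lies above the dashed one at every age in every panel, while the age of the highest level differs from gene to gene.

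Among the 5 transcription factors, 0 rose and 3 fell with age in Tle4 CThPNs, where 15% of all rows rose and 11.7% fell. Nfe2l3, a basic leucine zipper factor, had 129, 93.5, 77.0, 37.1, 5.12 and 8.42 FPKM in Tle4 CThPNs and 7.87, 7.66, 5.92, 4.26, 0.293 and 0.618 FPKM in Cux2 CPNs. It had the largest fall of the set in Tle4 CThPNs, by 3.36, and fell by 2.33 in Cux2 CPNs. Otx1, a homeodomain factor of deep layers, had 25.3, 30.2, 29.2, 26.2, 9.41 and 7.05 FPKM in Tle4 CThPNs and 2.22, 1.90, 1.67, 1.49, 0.487 and 0.342 FPKM in Cux2 CPNs. Its level was nearly flat until P7 and lower at P21 and P48, with a fall by 1.65. Nfia, of the nuclear factor I family, had 78.5, 61.9, 36.2, 25.5, 17.5 and 14.9 FPKM in Tle4 CThPNs and 20.4, 11.4, 3.30, 1.13, 0.591 and 1.78 FPKM in Cux2 CPNs. It declined at each successive age in Tle4 CThPNs and, up to P21, in Cux2 CPNs.

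Zfpm2, the GATA cofactor FOG2, was steadier, with 20.3 to 33.2 FPKM in Tle4 CThPNs and 1.62 to 4.52 FPKM in Cux2 CPNs, and the HMG box gene Tox ranged over 5.32 to 22.1 FPKM in Tle4 CThPNs and 1.22 to 5.84 FPKM in Cux2 CPNs. Of 37 zinc finger, homeodomain and related factors of projection neurons in the table, 6 passed the ratio, namely Otx1, Zfpm2 and Nfia among the members and Fezf2, Sox5 and Bcl11b among the genes set aside, while 7 passed the mirrored ratio, including Cux1 and Pou3f2. Of 17 nuclear receptors, 0 passed in either direction, against 0.973% of all rows that passed the ratio and 0.911% the mirrored one.

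Of the 8 secreted signals, 3 rose, 3 fell and 2 stayed within 1 in Tle4 CThPNs, against 15% of all rows that rose and 11.7% that fell. Grp, gastrin-releasing peptide, had 23.0, 76.3, 131, 183, 229.7 and 119 FPKM in Tle4 CThPNs and 7.50, 33.8, 28.2, 43.0, 3.05 and 1.24 FPKM in Cux2 CPNs. It is the 1 member that rose in Tle4 CThPNs, by 1.02, and fell in Cux2 CPNs, by 3.04, and its class difference went from 1.72 early to 5.79 late, the largest widening of the set. With a pseudocount of 5 its rise in Tle4 CThPNs was 0.96, under the limit of 1. Wnt7b, a Wnt ligand, had 232, 171, 135, 53.7, 9.38 and 16.0 FPKM in Tle4 CThPNs and 45.5, 21.4, 10.0, 4.87, 3.28 and 3.90 FPKM in Cux2 CPNs. It was highest at E18.5 in both classes and fell by 3.30 in Tle4 CThPNs and by 1.81 in Cux2 CPNs. Of 16 genes of the Wnt pathway in the table, 1 passed the ratio (Wnt7b). Apcdd1, a membrane inhibitor of Wnt signalling that is not in that list, had 88.6, 105, 74.0, 40.0, 12.0 and 6.08 FPKM in Tle4 CThPNs and 5.94, 7.59, 2.47, 2.94, 2.15 and 1.73 FPKM in Cux2 CPNs, a fall by 2.94 in Tle4 CThPNs. Both Wnt-related members were thus highest before P3 and lowest at P21 or P48.

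Nptx1, a neuronal pentraxin of excitatory synapses, had 13.8, 24.8, 34.5, 51.6, 215 and 291 FPKM in Tle4 CThPNs and 1.19, 0.931, 0.768, 0.6, 70.0 and 73.0 FPKM in Cux2 CPNs. It was near the floor in Cux2 CPNs until P7 and abundant there at P21 and P48. The level rose in both classes, and the class difference fell by 2.17. Slit1, a ligand of Robo receptors, ranged over 19.1 to 37.9 FPKM in Tle4 CThPNs and 2.22 to 7.57 FPKM in Cux2 CPNs. Pgf, a growth factor of the VEGF family, ranged over 2.196 to 12.6 FPKM in Tle4 CThPNs and 0.173 to 0.778 FPKM in Cux2 CPNs and fell by 1.26 in Tle4 CThPNs. Of 43 axon guidance molecules outside the families that were set aside, 2 passed the ratio, Slit1 and the synaptic immunoglobulin protein Igsf21, and 3 passed the mirrored ratio, Ntng2, Unc5c and Unc5d.

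Mfge8, a bridge to phosphatidylserine on cells to be engulfed, had 15.5, 17.97, 10.96, 7.79, 85.3 and 82.2 FPKM in Tle4 CThPNs and 3.88, 4.03, 2.63, 2.59, 6.2002 and 10.6 FPKM in Cux2 CPNs. Every value up to P7 lay well below those at P21 and P48 in Tle4 CThPNs, with a rise by 2.65, against a rise by 1.11 in Cux2 CPNs.

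The 8 matrix and glycan genes included enzymes of heparan sulfate, the sulfated sugar chains that bind growth factors outside the cell. Hs3st4, a 3-O-sulfotransferase, had 85.3, 69.9, 71.1, 57.9, 49.1 and 55.1 FPKM in Tle4 CThPNs and 3.03, 2.75, 2.26, 9.09, 8.97 and 9.32 FPKM in Cux2 CPNs. It was highest at E18.5 and stayed within 1 in Tle4 CThPNs, and it rose by 1.10 in Cux2 CPNs. Sulf1, which removes 6-O-sulfate from finished chains, had 10.2, 12.96, 11.03, 8.60, 9.32 and 23.0 FPKM in Tle4 CThPNs and 0.607, 0.423, 0.325, 0.049, 0.433 and 0.197 FPKM in Cux2 CPNs. Its Cux2 CPN level was under 1 FPKM at all ages. Of 24 heparan sulfate genes in the table, these 2 passed the ratio and Hs6st3 passed the mirrored one. Sulf2, the other sulfatase, had a lowest ratio of 1.81 and Hs3st5 of 1.97.

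Timp3, an inhibitor of metalloproteinases, had 27.1, 45.7, 44.2, 38.8, 3.52 and 3.58 FPKM in Tle4 CThPNs and 1.92, 4.03, 4.58, 2.65, 0.972 and 1.02 FPKM in Cux2 CPNs. It fell by 3.11 in Tle4 CThPNs, and late levels were low in both classes. Eln, which encodes elastin, was low throughout, over 1.24 to 13.8 FPKM in Tle4 CThPNs and 0.0578 to 2.31 FPKM in Cux2 CPNs, and fell in both classes. Galnt9, which starts O-linked glycans, rose by 1.17 to 188 FPKM at P21 in Tle4 CThPNs, and Wscd1, of a sulfotransferase family, fell by 1.15 from 128 FPKM at P1. Mgat4c, of a family that branches N-glycans, ranged over 7.57 to 51.3 FPKM in Tle4 CThPNs and 1.15 to 6.36 FPKM in Cux2 CPNs and rose by 1.86 in Tle4 CThPNs. Bcan, the matrix proteoglycan brevican, had 5.51, 8.21, 9.13, 6.58, 46.0 and 31.0 FPKM in Tle4 CThPNs and 1.72, 2.10, 2.57, 1.73, 7.06 and 6.59 FPKM in Cux2 CPNs, with its highest level at P21 in both classes.

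Transmitter receptors numbered 4, and 3 of them bind glutamate. Grik3, a kainate receptor subunit, had 26.5, 30.2, 27.5, 24.2, 20.0 and 20.3 FPKM in Tle4 CThPNs and 5.16, 5.00, 5.22, 1.77, 0.791 and 1.18 FPKM in Cux2 CPNs. It was steady in Tle4 CThPNs and fell by 1.35 in Cux2 CPNs. Grik4, a second kainate subunit, ranged over 7.43 to 14.3 FPKM in Tle4 CThPNs and 1.35 to 3.33 FPKM in Cux2 CPNs. Of 14 ionotropic glutamate receptor genes in the table, these 2 passed the ratio and 0 the mirrored one. Grik1, another kainate subunit, had 0.644, 0.811, 0.961, 2.06, 12.1 and 7.86 FPKM in Tle4 CThPNs and 7.31, 8.42, 11.7, 19.4, 5.28 and 5.08 FPKM in Cux2 CPNs, lower in Tle4 CThPNs up to P7 and higher at P21 and P48. Grm8, a presynaptic metabotropic receptor, had 5.26, 9.11, 10.6, 18.2, 37.9 and 41.3 FPKM in Tle4 CThPNs and 1.20, 2.54, 2.87, 3.56, 4.44 and 4.17 FPKM in Cux2 CPNs. It rose by 1.90 in Tle4 CThPNs, with a higher value at each successive age. Of 35 peptide and amine receptors, Drd1a was the 1 that passed the ratio, and of 15 GABA and glycine receptors 0 passed it and 1, Gabra2, passed the mirrored one.

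The 8 members of G protein and second messenger signalling included 3 RGS proteins, of 16 in the table, and DARPP-32. Another, Rgs3, passed the mirrored ratio. Ppp1r1b, which encodes DARPP-32, an inhibitor of protein phosphatase 1 downstream of dopamine receptors, had 309, 311, 275, 160.4, 201 and 317 FPKM in Tle4 CThPNs and 15.8, 14.1, 7.49, 7.27, 84.5 and 80.9 FPKM in Cux2 CPNs. Its Tle4 CThPN level changed by less than 1 between early and late, whereas its Cux2 CPN level rose by 2.86. The class difference therefore fell by 2.87, from 4.47 to 1.60, the largest narrowing of the set. Pcp4, a calmodulin-binding peptide, had 154, 226, 494, 1175, 3927 and 3940.1 FPKM in Tle4 CThPNs and 27.1, 19.4, 25.9, 67.6, 459 and 577 FPKM in Cux2 CPNs. It had the highest level of any member, rose in both classes by 3.38 and 4.01, and kept a ratio of at least 5.52.

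Rgs16 had 32.7, 22.8, 17.5, 7.13, 13.3 and 17.2 FPKM in Tle4 CThPNs and 2.60, 1.36, 0.817, 0.166, 1.58 and 4.10 FPKM in Cux2 CPNs. Its level in Tle4 CThPNs was lowest at P7 and higher at both ends of the series. Rgs9 was the least different of the 3, over 10.6 to 18.003 FPKM in Tle4 CThPNs and 2.07 to 7.11 FPKM in Cux2 CPNs. Pde9a, a phosphodiesterase of cyclic GMP, ranged over 12.3 to 66.2 FPKM in Tle4 CThPNs and 1.06 to 19.5 FPKM in Cux2 CPNs and fell in both classes, and Rcan3, a regulator of calcineurin, ranged over 6.73 to 30.4 FPKM in Tle4 CThPNs and 1.05 to 7.07 FPKM in Cux2 CPNs and fell in both as well.

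The 7 members grouped by hand as cell cycle and stress proteins held genes named for arrest of the cell cycle or for stress and genes of other roles. Rprm, reprimo, known for p53-induced arrest in G2, had 319, 258, 344, 545, 562 and 548 FPKM in Tle4 CThPNs and 41.1, 40.4, 36.5, 31.5, 45.2 and 18.04 FPKM in Cux2 CPNs. It was high at all ages in Tle4 CThPNs, and its ratio was between 6.25 at P1 and 28.8 at P48. Gadd45a, a growth arrest and DNA damage inducible gene, had 4.25, 3.06, 3.47, 3.41, 55.3 and 60.0 FPKM in Tle4 CThPNs and 1.02, 0.8, 0.41, 0.655, 2.85 and 1.95 FPKM in Cux2 CPNs. It was nearly flat up to P7 and far higher at P21 and P48 in Tle4 CThPNs, a rise by 3.70, the largest of the set, against 0.98 in Cux2 CPNs. Of 17 genes of the p53 pathway and cell cycle arrest in the table, these 2 passed the ratio. The other 15 summed to 240, 224, 244, 229, 254 and 275 FPKM in Tle4 CThPNs and to 220, 189, 156, 152, 329 and 305 FPKM in Cux2 CPNs. Over the same ages, 15 genes induced by dissociation summed to 1012, 1018, 1114, 1209, 2981 and 3345 FPKM in Tle4 CThPNs and to 1116, 1069, 1058, 1321, 3034 and 4235 FPKM in Cux2 CPNs. Both sums were highest at P21 and P48, the ages at which the study's methods give more papain for digestion. The list as written also includes Egr3, which the paper places in its shared-late clusters with genes of synaptic function. Age and digestion changed together, and their parts in the rise of Gadd45a and of other members were not tested.

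Spsb1, a SOCS box adaptor of a ubiquitin ligase, had 18.7, 47.7, 51.0, 58.5, 55.4 and 62.2 FPKM in Tle4 CThPNs and 1.62, 3.32, 2.71, 2.35, 1.99 and 2.03 FPKM in Cux2 CPNs. Its Tle4 CThPN level was lowest at E18.5 and lay between 47.7 and 62.2 FPKM from P1 on. Cryab, the small heat shock protein alpha B-crystallin, ranged over 9.81 to 156 FPKM in Tle4 CThPNs and 2.23 to 34.8 FPKM in Cux2 CPNs and rose in both classes. Fam110b, a centrosome-associated gene, had 310.2, 253, 236, 162, 76.6 and 58.7 FPKM in Tle4 CThPNs and 88.1, 75.4, 60.0, 49.9, 35.6 and 22.1 FPKM in Cux2 CPNs, a decline at each successive age in both. Cidea, a lipid droplet protein, ranged over 2.91 to 20.4 FPKM in Tle4 CThPNs and 0.18 to 5.78 FPKM in Cux2 CPNs and fell by 1.54 in Tle4 CThPNs. Ndrg2 stayed within 1 in both classes, over 25.9 to 64.1 FPKM in Tle4 CThPNs and 6.97 to 13.9 FPKM in Cux2 CPNs.

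Of the 7 cell surface genes, 1 rose, 3 fell and 3 stayed within 1 in Tle4 CThPNs, against 15% and 11.7% of all rows that rose and fell. Islr2, a leucine-rich repeat protein of growing axons, had 108, 118, 115, 113, 27.6 and 18.51 FPKM in Tle4 CThPNs and 4.86, 3.31, 2.52, 2.25, 5.27 and 4.49 FPKM in Cux2 CPNs. It was nearly constant from E18.5 to P7 in Tle4 CThPNs and much lower at P21 and P48. Its class difference fell by 2.79, from 4.80 to 2.01. Sez6, a transmembrane protein that bears on dendrite growth, had 440.3, 579.6, 482, 435, 239 and 232 FPKM in Tle4 CThPNs and 108, 132, 109, 97.3, 31.3 and 22.1 FPKM in Cux2 CPNs. It fell in both classes and more so in Cux2 CPNs, by 2.03 against 1.03. Igsf21 had 46.6, 126, 168, 197, 127 and 128 FPKM in Tle4 CThPNs and 9.42, 13.7, 12.5, 13.4, 20.4 and 8.63 FPKM in Cux2 CPNs, with class differences of 3.18 early and 3.17 late.

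Amigo2, a leucine-rich repeat adhesion protein, ranged over 13.2 to 17.6 FPKM in Tle4 CThPNs and 1.85 to 5.72 FPKM in Cux2 CPNs, and Scara3, of the scavenger receptor family, over 7.78 to 11.8 FPKM in Tle4 CThPNs and 0.516 to 4.86 FPKM in Cux2 CPNs. Trbc2, annotated as a constant region of the T cell receptor beta chain, had 5.61, 37.1, 78.5, 126, 188 and 166 FPKM in Tle4 CThPNs and 0.452, 1.89, 6.80, 31.9, 43.5 and 50.2 FPKM in Cux2 CPNs. Its level rose in both classes, but near-identical copies of this region exist, so the split of reads among them is uncertain.

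Genes of transport and the cytoskeleton numbered 9, of which 4 widened and 0 narrowed in class difference. Over the 66 members 22.7% widened and 19.7% narrowed, against 6.01% and 6.13% of all rows. The rule used the same class ratios, so these counts describe the chosen genes. Lsp1, an actin-binding protein first described in leukocytes, had 5.31, 12.0, 13.6, 19.4, 22.8 and 51.7 FPKM in Tle4 CThPNs and 0.361, 0.639, 0.695, 0.676, 0.281 and 0.505 FPKM in Cux2 CPNs. It was under 1 FPKM in Cux2 CPNs at all ages and rose in Tle4 CThPNs, where its highest value was at P48. Arhgap25, a GTPase-activating protein for Rac, had 1.23, 3.31, 7.25, 12.4, 31.3 and 38.5 FPKM in Tle4 CThPNs and 0.0196, 0.096, 0.0349, 0.116, 0.679 and 1.92 FPKM in Cux2 CPNs. It rose by 2.65 in Tle4 CThPNs and at each successive age. The summed microglia markers, with 7 genes in the table, were 28.3, 32.5, 46.7, 38.2, 112 and 21.4 FPKM in Tle4 CThPNs, highest at P21. In Cux2 CPNs they were 8.28, 14.7, 17.1, 31.3, 22.1 and 35.0 FPKM, highest at P48. Their sum was higher in Tle4 CThPNs from E18.5 to P21 and in Cux2 CPNs at P48. The part of microglia in the levels of Lsp1 and Arhgap25 was not tested.

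Dync1i1, the neuronal intermediate chain of dynein, had 722, 823, 748, 640.1, 287 and 269 FPKM in Tle4 CThPNs and 299.7, 365, 224, 179, 131 and 116 FPKM in Cux2 CPNs. It was among the most abundant members and had the smallest mean difference. Myo5b, a myosin of recycling endosomes, was highest at P7 in both classes, at 107 and 38.8 FPKM. Sec24d of the COPII coat ranged over 6.21 to 30.0 FPKM in Tle4 CThPNs and 1.49 to 5.01 FPKM in Cux2 CPNs and fell by 1.47 in Tle4 CThPNs. Sh3bp4, an endocytic adaptor, fell by 1.69 in Cux2 CPNs alone, and Cys1, cystin of the cilium, rose by 1.13 in Cux2 CPNs alone, with Tle4 CThPN changes within 1.

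Metabolism and membrane transport held 6 members, of which 3 rose and 0 fell in Tle4 CThPNs, against 15% and 11.7% of all rows. Tmem159, a lipid droplet assembly factor, had 2.58, 3.17, 9.91, 35.3, 59.9 and 55.7 FPKM in Tle4 CThPNs and 0.16, 0.414, 0.737, 0.938, 15.1 and 22.4 FPKM in Cux2 CPNs. It rose by 2.74 in Tle4 CThPNs and by 3.66 in Cux2 CPNs. Ppap2b, a lipid phosphate phosphatase, had 12.3, 9.36, 6.91, 4.70, 46.0 and 39.5 FPKM in Tle4 CThPNs and 3.67, 2.28, 0.826, 0.791, 4.47 and 7.54 FPKM in Cux2 CPNs. Its Tle4 CThPN level declined from E18.5 to P7 and was highest at P21. Ddah1, which breaks down dimethylarginines, ranged over 51.2 to 130.5 FPKM in Tle4 CThPNs and 12.0 to 41.4 FPKM in Cux2 CPNs. Stard5, a sterol-binding protein, had 7.60, 7.78, 11.1, 16.9, 27.1 and 16.7 FPKM in Tle4 CThPNs and 2.16, 2.57, 3.07, 4.93, 0.954 and 1.74 FPKM in Cux2 CPNs, and its difference widened from 1.48 to 3.27. Aldh3a1, an aldehyde dehydrogenase, stayed at or under 0.151 FPKM in Cux2 CPNs and reached 10.5 FPKM at P7 in Tle4 CThPNs, and Nipal3 rose in both classes, over 4.47 to 16.2 FPKM in Tle4 CThPNs and 0.439 to 6.07 FPKM in Cux2 CPNs.

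The 4 members without a sure role, Ctxn2, D630023F18Rik, Tbata and Rpl38-ps2, all stayed within 1 between the early and late means in Tle4 CThPNs. This does not describe changes among the early ages. Tbata ranged over 4.20 to 39.3 FPKM in Tle4 CThPNs and 0.117 to 5.39 FPKM in Cux2 CPNs, Ctxn2 over 6.70 to 19.7 FPKM in Tle4 CThPNs and 1.01 to 8.34 FPKM in Cux2 CPNs and D630023F18Rik over 1.37 to 13.5 FPKM in Tle4 CThPNs and 0.158 to 3.35 FPKM in Cux2 CPNs. Rpl38-ps2 ranged over 5.81 to 13.6 FPKM in Tle4 CThPNs and 0 to 0.622 FPKM in Cux2 CPNs. It is a pseudogene of a ribosomal protein gene with annotated exons of 291 nt, so reads may be shared with its parent gene and its value is uncertain.

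Over the whole set, a lasting class difference did not mean a constant level. In Tle4 CThPNs, 17 of 66 members (25.8%) rose from early to late, against 15% of all rows, 19 (28.8%) fell, against 11.7% of all rows, and 30 stayed within 1. In Cux2 CPNs, where members are low, 18 (27.3%) rose, against 17.1% of all rows, and 17 (25.8%) fell, against 13.8%. The rule used the ratio at each age but not the change with age. It does require some expression at each age in Tle4 CThPNs, and no test was made with 1 value per group. These shares depended on the pseudocount. With a pseudocount of 5, the rule was met by 31 genes, of which 4 rose (12.9%, against 11.2% of all rows on that scale) and 9 fell (29%, against 7.53%). For the same 66 members on that scale, 15 (22.7%) rose and 17 (25.8%) fell.

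Changes of the members were set side by side in both classes. Both rose in 11 members (16.7%, against 11.7% of all rows, namely Pcp4, Nptx1, Arhgap25, Galnt9, Trbc2, Tmem159, Mfge8, Cryab, Ppap2b, Nipal3 and Bcan), both fell in 12 (18.2%, against 8.52% of all rows, namely Drd1a, Nfe2l3, Wscd1, Nfia, Timp3, Wnt7b, Sez6, Pde9a, Rcan3, Fam110b, Eln and Dync1i1), and both stayed within 1 in 19 (28.8%, against 63% of all rows). A rise past the limit in Tle4 CThPNs but not in Cux2 CPNs was seen in 5 (against 3.18% of all rows, Lsp1, Gadd45a, Gng12, Mgat4c and Grm8), and a fall in 7 (against 3% of all rows, Islr2, Trh, Otx1, Apcdd1, Pgf, Sec24d and Cidea). The change passed the limit in Cux2 CPNs and not in Tle4 CThPNs with a rise in 7 members, against 5.24% of all rows, and a fall in 4, against 5.12%. Grp was the 1 member that rose in Tle4 CThPNs and fell in Cux2 CPNs past the limit, as did 0.133% of all rows.

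**Figure D3:**
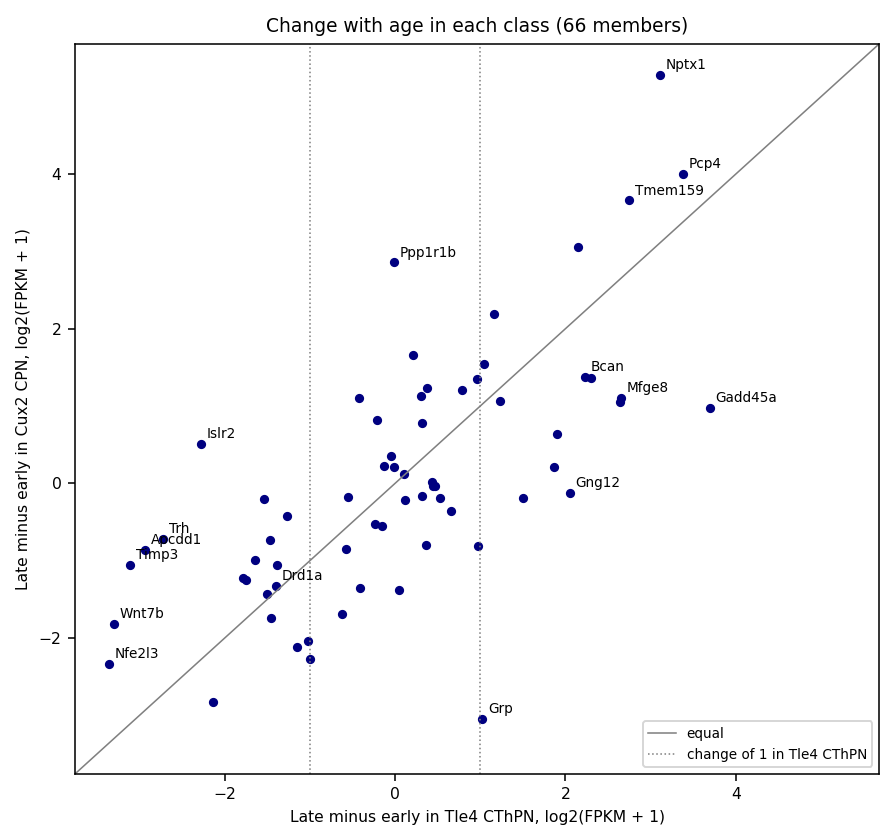
Late minus early log2(FPKM + 1) of each of the 66 members in Tle4 CThPNs (horizontal) and Cux2 CPNs (vertical), with dotted lines at changes of 1 in Tle4 CThPNs and a solid line where the classes are equal. The points scatter about the solid line, with Grp far below it on the right, while Ppp1r1b and Islr2 lie above it.

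The class difference widened by at least 1 from early to late in 15 members, against 6.01% of all rows that moved toward Tle4 CThPNs by as much. It narrowed by at least 1 in 13, against 6.13% of all rows that moved the other way. The other 38 stayed within 1. Since the rule fixed a floor for each age, both counts describe the chosen genes. With a pseudocount of 5, 2 of the 31 genes that met the rule widened (6.45%, against 3.91% of all rows on that scale) and 3 narrowed (9.68%, against 4.04%). The same 66 members on that scale gave 12 that widened and 8 that narrowed, and a ratio limit of 1.5 gave 36 and 20 of 159. After Grp, the differences that widened most were those of Gadd45a, from 1.41 to 4.12, and Gng12, a G protein gamma subunit, from 1.55 to 3.72. Besides Ppp1r1b and Islr2, those that narrowed most were Nptx1, from 3.96 to 1.79, Apcdd1, from 3.78 to 1.71, and Timp3, from 3.24 to 1.19. The median difference over the 66 was 2.17, 2.41, 2.67, 2.40, 2.50 and 2.48 in order of age, against -0.09, -0.02, 0, 0, -0.06 and -0.01 over all rows.

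**Figure D4:**
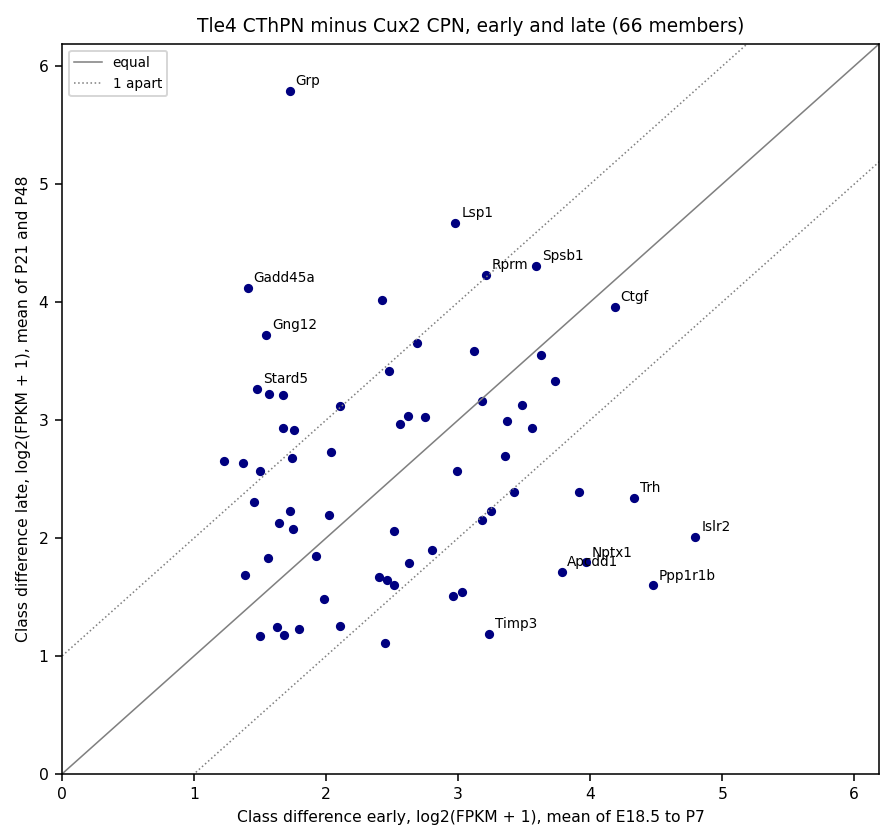
Class difference (Tle4 CThPN minus Cux2 CPN, log2(FPKM + 1)) of each of the 66 members early, as the mean of E18.5 to P7, and late, as the mean of P21 and P48, with a solid line of equality and dotted lines 1 apart from it. Above the upper dotted line lie the 15 members whose difference widened, with Grp farthest, and below the lower one the 13 whose difference narrowed, with Ppp1r1b and Islr2 farthest.

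The mirrored rule, for genes at least 2-fold higher in Cux2 CPNs at all 6 ages, was met by 89 rows (0.911%), of which 70 remained after the same symbols were removed. With age, 13 of these (18.6%) rose and 20 (28.6%) fell in Cux2 CPNs, against 17.1% and 13.8% of all rows. Their difference widened in 7 and narrowed in 15, against 6.13% of all rows that moved toward Cux2 CPNs and 6.01% that moved the other way. The difference between the 2 sets in these counts was not tested.

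Other gene groups were written down with earlier results known. Of 11 layer 5 projection neuron genes 6 passed, of which Pcp4 is a member. The ratio was passed by 3 of 34 calcium-binding proteins and calmodulin regulators (Rcan3, Ppp1r1b and Pcp4), 2 of 20 collagens and matrix proteins (Bcan and Ctgf), 1 of 9 complexins and copines (Cplx3), 1 of 15 neurexins and partners (Nxph3, set aside), 1 of 10 TLE and HES corepressors (Tle4, set aside), and 1 of 9 thalamic and striatal genes (Rgs16). It was passed by 0 of 23 calcium and sodium channels, 0 of 21 genes of the TGF beta and BMP pathway, 0 of 10 genes of the IGF pathway, and 0 of 14 general genes of glutamatergic neurons. The mirrored ratio, for Cux2 CPNs, was passed in these lists by 3 genes of the TGF beta and BMP pathway (Smad3, Fstl4 and Inhba), 2 channels (Cacna2d1 and Cacng3), 2 corepressors (Tle1 and Tle3), 2 general genes of glutamatergic neurons, and 1 gene each of the IGF pathway (Igfbp5), the matrix proteins (Thsd7a) and the thalamic and striatal genes (Tac1). Of genes induced by dissociation 0 of 15 passed, and so did 0 of 6 progenitor, 0 of 4 blood, 0 of 3 endothelial and 0 of 1 cycling genes. Over all rows 0.973% passed the ratio and 0.911% the mirrored one, so a count of 0 in short lists, here and above, says little.

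Highest levels in Tle4 CThPNs were spread over development. The highest was at E18.5 for 11 members, among them Wnt7b, Nfe2l3, Nfia, Zfpm2 and Hs3st4. It was at P3 for 3 (Ctgf, Tmem163 and Pgf), and for 13 each at P1, P7, P21 and P48. The late peaks included Pcp4, Nptx1, Gadd45a, Lsp1, Arhgap25 and Grm8 at P48.

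Markers of other cells moved with part of the late rise and are set out here as measured. Among astrocyte genes, Gja1, a gap junction protein, had 0.721, 1.39, 1.67, 3.76, 72.6 and 53.6 FPKM in Tle4 CThPNs and 0.369, 0.541, 0.688, 0.931, 4.58 and 6.05 FPKM in Cux2 CPNs, and Aldoc, an aldolase, had 8.29, 7.67, 5.97, 7.33, 124 and 145 FPKM in Tle4 CThPNs and 4.04, 4.20, 2.33, 3.70, 20.1 and 40.4 FPKM in Cux2 CPNs. Both were several times higher at P21 and P48 in Tle4 CThPNs than at earlier ages. Mfge8, Ppap2b and Bcan, which are known from astrocytes as well as other cells, rose at the same ages, as did Gng12 and Gadd45a, and the part of astrocytes in these rises was not tested. Only members that rose past the limit are named here. From P21 to P48 in Tle4 CThPNs the summed astrocyte level went from 1008 to 619 FPKM. Within this sum Apoe alone went from 607 to 302 FPKM, while Aldoc went from 124 to 145 FPKM, so the sum follows Apoe more than the other genes of the list. Over the same interval Bcan went from 46.0 to 31.0 FPKM, Gng12 from 58.6 to 44.7 FPKM, Ppap2b from 46.0 to 39.5 FPKM, Mfge8 from 85.3 to 82.2 FPKM and Gadd45a from 55.3 to 60.0 FPKM. Oligodendrocyte lineage genes, 7 in the table, summed to 31.6, 19.2, 27.3, 12.5, 299 and 117 FPKM in Tle4 CThPNs and to 16.3, 19.4, 26.3, 22.6, 161 and 218 FPKM in Cux2 CPNs, and 0 of them passed the ratio. The 3 endothelial and pericyte genes summed to 0.521, 2.24, 0.418, 4.97, 49.4 and 18.6 FPKM in Tle4 CThPNs. Their Cux2 CPN sums were 0.596, 1.99, 0.596, 5.16, 6.55 and 11.1 FPKM. The 4 blood genes summed to 6.32, 7.68, 3.58, 11.5, 174 and 20.8 FPKM in Tle4 CThPNs. Their Cux2 CPN sums were 26.2, 37.99, 10.2, 4.45, 219 and 79.8 FPKM, higher than in Tle4 CThPNs at all ages but P7. The part of these cells in the late rises was not tested.

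**Figure D5:**
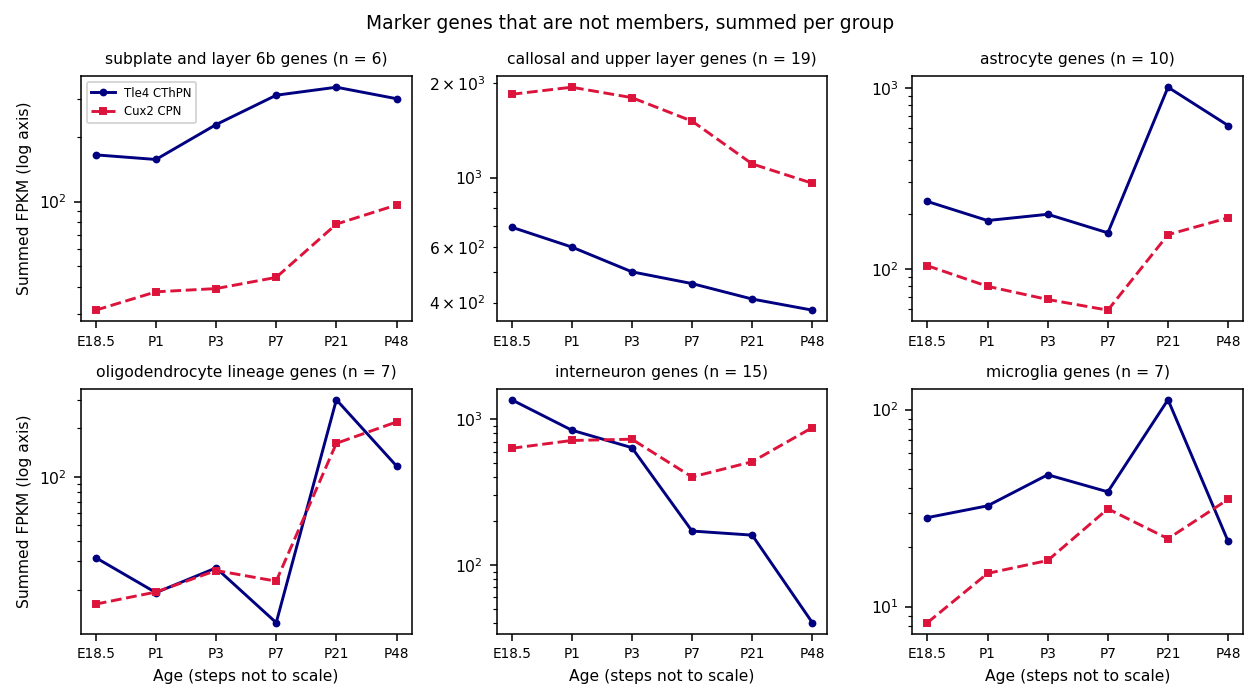
Summed FPKM, on log axes, of marker genes that are not members, by age (categories, not to scale), in Tle4 CThPNs (solid, circles) and Cux2 CPNs (dashed, squares), with the number of genes in each title. Astrocyte genes lie higher in Tle4 CThPNs at every age and jump at P21, and callosal and upper layer genes lie higher in Cux2 CPNs at every age.

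All 66 members were placed on the genome of the same build as the table (NCBIM37), where 64 are protein coding. They lie on 18 chromosomes, and 0 lie on X, against 3.41% of the rows with a position. Their annotated exons had a median of 3228 nt and their spans a median of 37039 nt, against 3652 and 22903 nt for the 9496 rows with a position. Within 100 kb of another gene that passed the ratio lay 7 members (10.6%), against 123 of 9401 rows that did not pass (1.31%).

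These neighbours are Rgs8 with Rgs16 on chromosome 1, 42.7 kb apart, Rcan3 with Nipal3 on chromosome 4, 11.6 kb apart, Gng12 with Gadd45a on chromosome 6, 13.7 kb apart, and Tmem159 with Crym, which was set aside, on chromosome 7, 65.4 kb apart. Gng12 had 10.0, 11.3, 10.8, 14.7, 58.6 and 44.7 FPKM in Tle4 CThPNs and 3.32, 4.43, 2.66, 2.99, 3.50 and 2.49 FPKM in Cux2 CPNs. Like Gadd45a, it was low up to P7 and high at P21 and P48 in Tle4 CThPNs and did not change past the limit in Cux2 CPNs. Another listed gene of this stretch, E230016M11Rik, overlaps the start of Gadd45a on the other strand with a mean difference of 1.26. The library kit does not mark strand, so reads in that overlap cannot be assigned to either gene. Rcan3 and Nipal3 instead changed in opposite directions, with a fall by 1.51 and a rise by 1.05 in Tle4 CThPNs.

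Upstream windows of 250 bases before the start site were found in RefSeq for 42 of the 66 members (build GRCm38.p6, another build than that of the table, used for these windows only). Counting the letters CG in the richest window of each gene, the members had a median of 16 and all 7509 table genes with a window a median of 18. Fewer than 5 CG were found in 5 of 42 members (11.9%) and in 4.62% of the table genes. Of single windows, 4 are shown. Those of the neighbours Gng12 and Gadd45a were chosen because their levels moved together. Those of Pcp4 and Hs3st4 were chosen because, of the members with the 15 largest mean differences, and with 1 window each, they have the fewest and the most CG, 3 and 43. The window of Gng12, 1 of 2 for that gene, is chr6:66896147-66896396 on the plus strand, that of Gadd45a chr6:67037408-67037657 on the minus strand, that of Pcp4 chr16:96467356-96467605 on the plus strand and that of Hs3st4 chr7:123982578-123982827 on the plus strand. Each is given from 5′ to 3′ with CG in capitals.
Gng12: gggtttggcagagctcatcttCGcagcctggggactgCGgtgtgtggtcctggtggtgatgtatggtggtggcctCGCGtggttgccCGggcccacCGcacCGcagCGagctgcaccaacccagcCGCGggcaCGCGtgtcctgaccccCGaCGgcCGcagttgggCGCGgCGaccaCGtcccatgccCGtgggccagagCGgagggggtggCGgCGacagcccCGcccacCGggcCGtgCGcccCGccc
Gadd45a: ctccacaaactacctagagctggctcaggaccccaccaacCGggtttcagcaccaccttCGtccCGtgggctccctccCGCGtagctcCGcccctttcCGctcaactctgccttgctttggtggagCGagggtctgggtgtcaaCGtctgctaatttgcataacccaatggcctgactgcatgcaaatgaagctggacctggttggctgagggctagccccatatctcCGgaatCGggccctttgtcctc
Pcp4: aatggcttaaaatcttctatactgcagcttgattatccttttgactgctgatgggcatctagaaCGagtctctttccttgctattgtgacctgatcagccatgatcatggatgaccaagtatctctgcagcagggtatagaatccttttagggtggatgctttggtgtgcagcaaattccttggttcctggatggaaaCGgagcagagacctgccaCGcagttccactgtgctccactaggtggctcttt
Hs3st4: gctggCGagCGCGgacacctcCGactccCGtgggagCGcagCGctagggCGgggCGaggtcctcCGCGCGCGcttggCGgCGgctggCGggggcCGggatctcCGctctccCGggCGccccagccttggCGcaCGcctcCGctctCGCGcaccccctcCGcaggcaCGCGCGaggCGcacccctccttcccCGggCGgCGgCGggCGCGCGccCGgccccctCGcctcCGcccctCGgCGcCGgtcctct

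The Gng12 window has 28 CG and the Gadd45a window 11, so the pair with like changes differed in this feature. The letters of 5 factor motifs were searched on both strands of all windows. The forkhead letters TGTTTAC were found in 3 members (7.14%, Mgat4c, Ndrg2 and Stard5) and in 2.62% of table genes. The T-box letters GGTGTGA were found in 1 member (2.38%, Rgs8) and in 3.36% of table genes, and the SoxD letters AACAAT in 1 member (Mgat4c) against 6.38%. The POU letters ATGCAAAT were found in 1 member (Gadd45a) against 1.35%, and the cyclic AMP response letters TGACGTCA in 0 members against 3.41%. These are matches of letters, and with 42 members 1 gene is 2.38% of the set.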

How the data were processed

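Sorted Cux2 CPNs and Tle4 CThPNs were profiled by RNA-seq at 6 ages, with 2 libraries for each of 12 groups. According to the study's methods, the authors trimmed reads with Trimmomatic, aligned them with TopHat2 to the mouse build NCBIM37 (mm9), and deposited FPKM from Cuffdiff, 1 value per gene and group over both libraries. The table keeps 9767 rows, each with at least 10 FPKM in some group. The study's methods give a minimum depth for the libraries, but the depth of each library and the reads per gene are unknown from these FPKM, so no interval could be given. The option used to scale libraries is not given in the sources used here.

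Ratios and differences were computed on FPKM with a pseudocount of 1 in Python 3.11.15 (numpy 2.4.6, pandas 2.3.3; figures with matplotlib 3.10.9), on log2 for differences. The planned limma fit needed values per library and was not made. The members and gene lists were chosen with earlier results of these data known. Genes named are those with the 15 largest mean differences, the 8 highest levels, the 5 largest changes of each kind, the 3 on each side of the limit, list members, and the leading genes of each role group. Other members and markers named were added after their values were seen, and 1 marker gene is not reported here, for a reason unrelated to its values. Positions come from the GENCODE annotation of NCBIM37, and upstream windows from RefSeq. Members without a window are Ctgf, Lsp1, Ppp1r1b, Sulf1, Rpl38-ps2, Nptx1, Otx1, Apcdd1, Grp, Aldh3a1, Zfpm2, Wnt7b, Trbc2, Sez6, Slit1, Pde9a, Tmem159, Cryab, Cidea, Myo5b, Scara3, Fam110b, Eln and Tox.

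Alternatives were pseudocounts of 0.1 and 5 (also with the 66 members kept, added after the data were seen), limits of 1.5 and 3 on the ratio, a limit of 1.5 on changes with age, rescaling by median ratios, 30 FPKM as the minimum, removal of short genes, each age left out, and early ages without P7.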

Additional observations from a re-analysis of the deposited data

How the results depend on the processing

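The size of the set depended on the pseudocount and on the limit. With a pseudocount of 0.1, 104 genes met the rule, of which 27 widened, 23 narrowed, 35 rose and 35 fell in Tle4 CThPNs. With a pseudocount of 5, 31 met it, all of them among the 66, and 2 widened, 3 narrowed, 4 rose and 9 fell. With the 66 kept and a pseudocount of 5, a setting chosen after the data were seen, 8 narrowed. A ratio limit of 1.5 gave 159 genes, with 36 widened, 20 narrowed, 50 that rose and 40 that fell, and a limit of 3 gave 27, all among the 66, with 3 widened, 7 narrowed, 6 that rose and 8 that fell. The rule applied to E18.5 to P7 alone was met by 139 genes and applied to P21 and P48 alone by 350. With a limit of 1.5 for changes with age, 8 widened, 7 narrowed and 12 fell. Scaling by median ratios, with factors of 0.956 to 1.041, gave 72 genes including the 66. A minimum of 30 FPKM kept 47, removal of genes with exons up to 300 nt kept 65, and leaving out each age in turn gave 69 to 83. For the 40 genes named by rule, 240 values were recomputed under the pseudocounts and the scaling, and 0 changed direction where called. Of 22 that changed past the limit with age in Tle4 CThPNs, 1 fell short of it with a pseudocount of 5 (Grp, 0.96) and 0 with the other settings. No paired analysis was possible because each column gives 1 value for both libraries and no replicate number, and replicates could not be left out for the same reason. For low genes the precision is limited by read numbers that these FPKM do not give.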
